A study of Mus musculus with 15 samples.

Results

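Ribosomes are built in the nucleolus, and the genes described here encode proteins of that assembly line. The set holds 45 nucleolar ribosome biogenesis genes, chosen by symbol from knowledge of what they do and matched to the deposited tables through the GENCODE vM21 mouse annotation. All 45 were found among the 30949 genes listed in every table, and all 45 passed the filter on low values. They were measured in regulatory T (Treg) cells, the Foxp3-expressing CD4 T cells that restrain immune responses. Spleen and lymph nodes were the source, taken from C57BL/6 females with both Dock8 alleles floxed and one Foxp3YFP-Cre allele (Foxp3YFP-Cre/+ Dock8flox/flox), so that Cre is made only in Foxp3-expressing cells whose active X chromosome carries it. YFP+ cells, which delete Dock8 and are labelled KO, and YFP- cells, labelled WT, therefore came from mice of one genotype, and the WT cells carry the floxed alleles too. CD25+CD39+ cells were sorted and kept for 16 h either in medium without stimulation or with beads that carry anti-CD3 and anti-CD28, at 1 bead per cell. Smart-Seq2, a full-length cDNA method for small inputs, gave 15 libraries: 4 unstimulated WT, 6 unstimulated KO, 3 WT with beads and 2 KO with beads. Mouse ages, and which libraries came from the same mouse, are not stated in the labels. The p-values therefore reflect how these libraries vary, which may be partly technical. The comparisons ask what loss of DOCK8 and stimulation through the T cell receptor each do to the transcriptome. DOCK8 is a guanine nucleotide exchange factor that acts on the actin cytoskeleton. KO cells also express YFP-Cre and WT cells do not, so KO against WT cannot tell this apart from loss of DOCK8.

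RNA polymerase I copies the ribosomal DNA into a long precursor. Small nucleolar RNAs then guide its chemical modification, box C/D particles by methylation and box H/ACA particles by pseudouridylation, while assembly factors fold, cut and pack the small and the large subunit. Resting lymphocytes keep this activity low, and activated T cells enlarge their nucleoli and make ribosomes before they divide, with Myc as a transcription factor known to act on many of the genes.

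The tables give TPM, a length-corrected share of all transcripts, so that read depth is unknown. Listed TPM summed to between 819698 and 938140 per library. Unstimulated and bead libraries were deposited with different gene lists, 36904 and 31785 genes, so that treatment and table set cannot be told apart. Dock8 was listed at 9.15 to 22.0 TPM in unstimulated WT, 6.70 to 11.9 in unstimulated KO, 8.71 to 10.1 in WT with beads and 5.82 to 7.90 in KO with beads. The genotypes overlapped without beads (log2 difference -0.67, SE 0.27, limma adjusted p = 0.368) and not with beads (-0.39, SE 0.38, limma adjusted p = 1), and gene totals do not show whether the floxed exons are present. All 8 Treg cell markers were above 0 in every group. Among them, Il2ra (CD25) and Entpd1 (CD39) encode the proteins used for the sort, so their presence is no separate evidence of identity. The summed level of the 8 ran from 375 to 900 TPM without beads and from 942 to 997 TPM with beads. The sum hides differences between genotypes. Foxp3 ran from 29.3 to 51.6 TPM in unstimulated WT and from 6.29 to 26.0 in unstimulated KO. With beads it ran from 88.6 to 106 TPM in WT and from 42.2 to 42.7 in KO. Ctla4 and Cd3d were also lower in KO without overlap in the libraries without beads. Ctla4 ran from 52.4 to 95.9 TPM in WT and from 19.9 to 51.6 in KO, and Cd3d from 124 to 226 and from 73.9 to 121. Cd4, Cd3e, Ikzf2 and Il2ra overlapped there. Entpd1 overlapped between genotypes, at 131 to 207 TPM in unstimulated WT and 167 to 337 in unstimulated KO. Part of the higher sum with beads was Il2ra, with means of 11.3 (WT) and 11.2 (KO) TPM without beads and 190 and 118 with beads. A share of 12.4 to 45.3% of each unstimulated library and 6.57 to 15.8% of each bead library belonged to 11 predicted genes that derive from repeats. The mean share was 23.4% (SD 8.2, n = 4) among WT and 34.5% (SD 8.6, n = 6) among KO libraries without beads, and it lowers the TPM of all other genes.

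With beads, most of the ribosome biogenesis genes rose: 35 of the 45 were called higher in WT and 34 in KO, where 4.6% and 5.95% of all genes tested were. The summed level of the 45 genes was 987, 1057, 824 and 1219 TPM in the 4 unstimulated WT libraries and 5762, 6907 and 5644 TPM in the 3 WT libraries with beads. In KO it ran from 565 to 967 TPM (median 703) without beads and was 4470.3 and 5311 TPM with beads. The 2 conditions did not overlap in either genotype. Npm1 alone made up 25.2 to 32.2% of the sum in unstimulated WT and 36.3 to 38.9% with beads. Without Npm1 the sum was 736 ± 130 TPM (SD, n = 4) in unstimulated WT and 3814 ± 446 TPM (n = 3) with beads. In the mean of log2(TPM + 1), in which each gene counts alike, the level was 3.66 ± 0.27 in unstimulated WT (n = 4), 3.14 ± 0.23 in unstimulated KO (n = 6), 5.89 ± 0.17 in WT with beads (n = 3) and 5.71 ± 0.13 in KO with beads (n = 2). In bulk RNA, more expressing cells and more RNA per cell cannot be told apart.

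**Figure D1:**
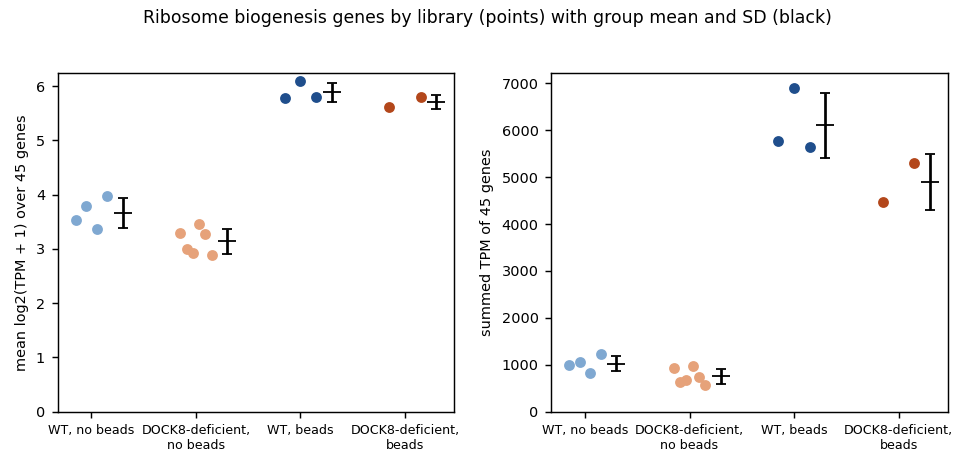
Mean log2(TPM + 1) over the 45 genes (left) and their summed TPM (right), 1 point per library in 4 groups, with the group mean and SD in black. Every bead library lies above every unstimulated library in both panels, and the unstimulated KO mean of 3.14 lies below the WT mean of 3.66.

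Each gene was tested on log2(TPM + 1) in limma across 29989 genes, and called at a Benjamini-Hochberg adjusted p under 0.05. In WT, 35 of 45 members were called higher with beads and 0 lower, where 4.6% of all genes tested were called higher and 6.63% lower. Abundant genes are called more readily. Among the 5937 genes that averaged 20 TPM or more in any group, 20.5% were called higher, against 33 of the 38 members in that range. In KO, 34 of 45 members were called higher and 0 lower, against 5.95% and 2.15% of all genes. Of the 38 abundant members 31 were called higher, against 26.6% of abundant genes. A gene can enter this abundant range through its bead level alone, as Nolc1, Gnl3 and Ltv1 did. The range is therefore not matched on resting level and favours genes that rose with beads. The KO call rests on 2 libraries: 22 members were called without KO bead replicate 4 and 17 without replicate 5. The members' median log2 difference was 2.38 in WT and 2.72 in KO, where the median of all genes was -0.44 and -0.23. Every bead value lay above every unstimulated value for 40 of 45 members in WT, against 8.61% of all genes, and for 39 of 45 in KO, against 11.2%. Both genotypes called 32 of the members, WT alone 3 (Polr1e, Gar1 and Ddx18), KO alone 2 (Ddx10 and Pes1) and neither 8. Summed levels of 10 T cell activation genes ran from 30.96 to 60.3 TPM without beads and from 450.0 to 726 TPM with beads. Those of 10 proliferation genes ran from 81.3 to 179 and from 352 to 873 TPM, but the genes did not rise alike. Mcm2, Mcm3, Mcm5, Pcna and Rrm2 were higher with beads in both genotypes without overlap. Top2a overlapped between conditions in both genotypes, Cdk1 and Tyms in KO alone, and Ccnb1 and Mki67 in WT alone. Mki67 ran from 1.31 to 4.52 TPM without and from 2.32 to 5.46 TPM with beads in WT. The part of either sum in the rise was not tested. Summed markers of other cell types were lower or overlapping with beads. Those of stromal and endothelial cells ran from 35.5 to 90.3 TPM without beads and from 19.2 to 32.9 TPM with beads, with no overlap. This sum mostly followed Pecam1, with means of 39.4 (WT) and 36.6 (KO) TPM without beads and 11.3 and 14.99 with beads. In the same list Epcam rose in WT, from 0 to 1.22 TPM without beads to 1.98 to 5.06 with beads, and overlapped in KO. The sum therefore does not show that a cell type fell. CD8 T and NK cell markers ran from 32.9 to 72.0 and from 16.2 to 38.5 TPM. B and plasma cell markers ran from 15.1 to 40.9 and from 8.41 to 23.3 TPM, myeloid markers from 2.03 to 34.2 and from 1.10 to 8.70 TPM, and erythroid and platelet markers from 7.44 to 40.7 and from 7.02 to 16.4 TPM. Of these markers Gzma and S100a9 were at 0 in both KO bead libraries, and their part was not tested either.

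**Figure D2:**
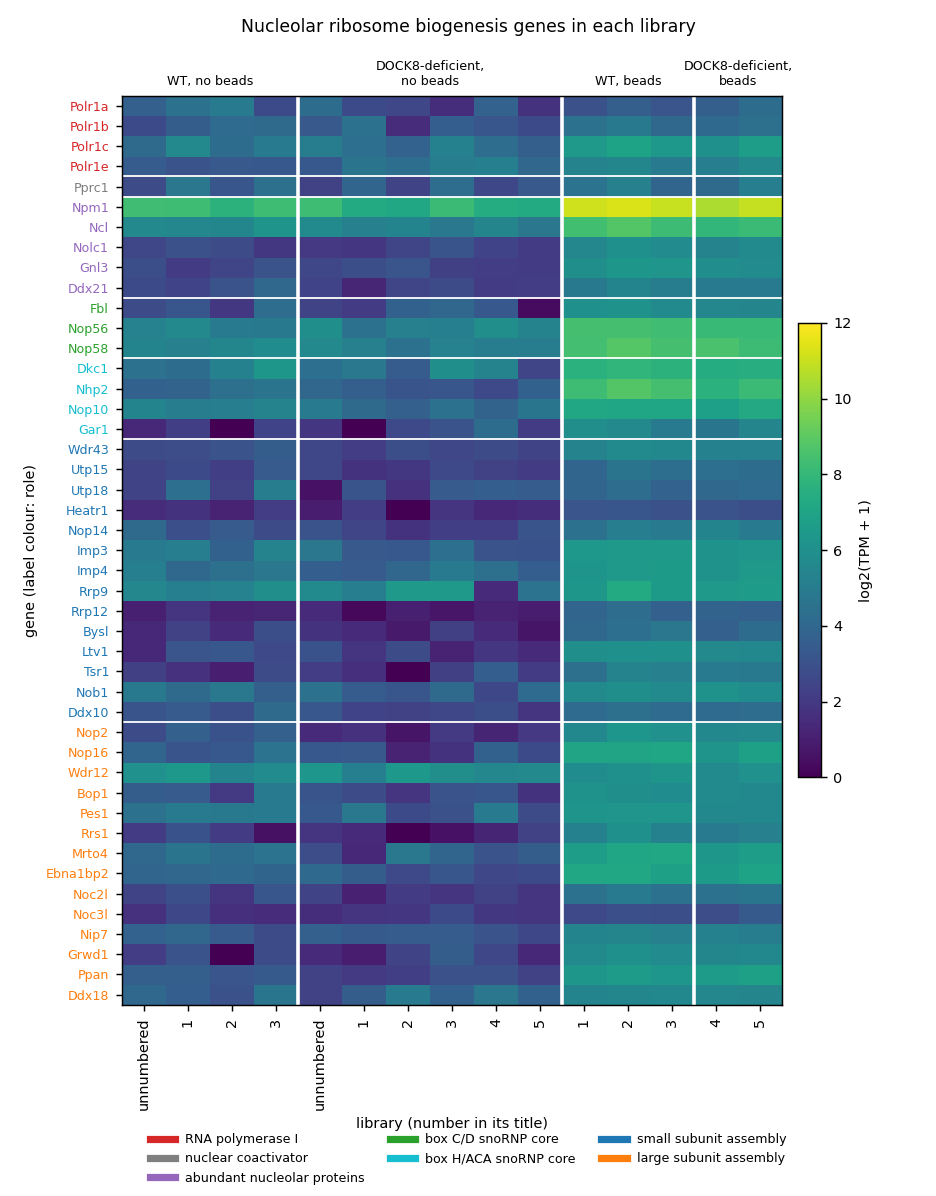
Level of each of the 45 genes (rows, label colour by role) in each of the 15 libraries (columns, with the number in the title) as log2(TPM + 1), with 4 groups separated by white lines. The 5 bead columns are brighter in nearly all rows, Npm1 is the brightest row throughout, and Wdr12 keeps about the same colour in all 15 libraries.

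Promoter sequence was read for the members because 32 of them were called higher with beads in both genotypes. RefSeq promoter windows on GRCm38.p6, 250 bases before to 50 after the annotated start, were found for 40 of the 45 genes (43 windows). The E-box CACGTG, the motif that Myc with its partner Max is known to bind and which reads the same on both strands, was present in 8 of the 43 windows, or 18.6%. It was present in 17.5% of the windows of other genes of ribosome production and in 7.15% of all 32851 windows. The 8 genes were Imp4, Nop2, Utp18, Pes1, Wdr43, Tsr1, Ltv1 and Grwd1. Pes1 was called higher with beads in KO alone and Utp18 in neither genotype. The others, Nop2 and Ltv1 among them, were called in both, as were 32 of all 45 members. The stretches below run from 130 bases before to 30 after the start on the + strand; Nop2, Wdr43 and Pes1 show the E-box in capitals, 60 bases before, 17 after and 2 after the first base of the start. Nhp2 had the largest response of all members in both genotypes, and its window holds no CACGTG. A match describes letters only, and no binding was measured.
Nop2, chr6:125131753-125131912: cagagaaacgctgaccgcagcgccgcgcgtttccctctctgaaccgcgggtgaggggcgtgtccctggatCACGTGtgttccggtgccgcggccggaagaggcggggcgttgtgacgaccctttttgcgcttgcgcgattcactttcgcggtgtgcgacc
Wdr43, chr17:71616085-71616244: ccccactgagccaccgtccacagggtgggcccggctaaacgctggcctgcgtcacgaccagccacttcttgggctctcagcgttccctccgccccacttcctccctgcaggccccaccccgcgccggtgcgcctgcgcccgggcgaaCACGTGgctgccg
Pes1, chr11:3963845-3964004: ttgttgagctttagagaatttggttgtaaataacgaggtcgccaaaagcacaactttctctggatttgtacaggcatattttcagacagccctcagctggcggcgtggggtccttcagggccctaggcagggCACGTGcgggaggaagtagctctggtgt
Nhp2, chr11:51619643-51619802: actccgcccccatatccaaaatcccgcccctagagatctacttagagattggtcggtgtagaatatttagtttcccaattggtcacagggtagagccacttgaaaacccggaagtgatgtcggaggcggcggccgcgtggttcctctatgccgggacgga

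The 5 abundant nucleolar proteins all rose in both genotypes, by a median log2 difference of 3.01 in WT and 3.13 in KO. Npm1 (chromosome 11, 33152287 to 33163206, - strand, mm10) encodes nucleophosmin, a histone chaperone and shuttling protein of the outer nucleolus, and was the most abundant of the 45 genes in each group. Its level was 318, 308, 211 and 307 TPM in unstimulated WT and 2239.9, 2579.8 and 2051 TPM with beads, and in KO it ran from 143 to 306 TPM (median 165) without beads and was 1494 and 1978 with beads. No bead library overlapped an unstimulated one, and the log2 difference was 3.01 (SE 0.30, limma adjusted p = 9.01e-05) in WT and 3.13 (SE 0.33, limma adjusted p = 8.82e-05) in KO. Npm1 shares 29.4% of its 31-base words with other annotated genes, most of them with Gm9118, so that reads may have been divided among them.

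Ncl encodes nucleolin, an RNA-binding protein of the nucleolus. It was at 49.6, 46.1, 44.05 and 73.9 TPM in unstimulated WT and 327, 436 and 295 TPM with beads, a log2 difference of 2.71 (SE 0.29, limma adjusted p = 0.00012). In KO it ran from 25.7 to 50.99 TPM (median 39.3) without beads and was 248 and 287 TPM with beads, a difference of 2.84 (SE 0.31, limma adjusted p = 0.000124). Every bead library was higher than every unstimulated library of its genotype.

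Nolc1, which encodes a chaperone of small nucleolar ribonucleoproteins, and Gnl3, which encodes the GTPase nucleostemin, started from low levels. Nolc1 was at 4.96, 6.97, 5.796 and 2.83 TPM in unstimulated WT and 46.1, 64.02 and 54.2 TPM with beads, and ran from 2.67 to 7.74 TPM (median 3.83) without beads and stood at 40.4 and 50.98 TPM with beads in KO. Gnl3 was at 6.26, 3.28, 4.62 and 7.41 TPM without and 62.2, 80.6 and 75.5 TPM with beads in WT, while KO libraries ran from 3.24 to 8.03 TPM (median 4.37) without and stood at 58.6 and 54.6 TPM with beads. The groups did not overlap for either gene, and the mean TPM of Gnl3 was 13.5 times higher with beads in WT and 11.3 times in KO. The log2 differences were 3.22 (SE 0.36, limma adjusted p = 0.000141) in WT and 3.195 (SE 0.38, limma adjusted p = 0.000201) in KO for Nolc1, and 3.57 (SE 0.34, limma adjusted p = 6.16e-05) and 3.32 (SE 0.36, limma adjusted p = 0.000114) for Gnl3. Ddx21, an RNA helicase that acts on polymerase I transcription and rRNA processing, was at 5.44, 4.31, 7.43 and 14.9 TPM without and 27.4, 42.1 and 31.6 TPM with beads in WT, while KO libraries ran from 1.44 to 5.77 TPM (median 3.903) without and stood at 30.4 and 28.7 TPM with beads. Its differences of 2.05 (SE 0.41, limma adjusted p = 0.00563) and 2.71 (SE 0.44, limma adjusted p = 0.00158) were the smallest of the 5 genes in WT and in KO.

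The 3 box C/D core proteins rose in both genotypes. Fbl encodes fibrillarin, the methyltransferase of the particle, and Nop56 and Nop58 are the paired proteins that hold the guide RNA. Nop56 was at 38.7, 48.8, 29.4 and 27.7 TPM in unstimulated WT and 348, 353 and 321 TPM with beads, while KO libraries ran from 21.2 to 61.96 TPM (median 38.3) without and stood at 267 and 280.2 TPM with beads. Nop58 was at 41.3, 36.04, 44.7 and 56.9 TPM without and 339, 458 and 353 TPM with beads in WT, while KO libraries ran from 22.2 to 49.4 TPM (median 34.6) without and stood at 371 and 300.3 TPM with beads. The pair thus reached nearly the same level with beads, and neither overlapped between conditions. The log2 differences were 3.24 (SE 0.34, limma adjusted p = 9.01e-05) and 2.75 (SE 0.36, limma adjusted p = 0.000379) for Nop56, and 3.08 (SE 0.28, limma adjusted p = 6.16e-05) and 3.24 (SE 0.30, limma adjusted p = 3.67e-05) for Nop58, in WT and KO. Fbl was lower and more scattered without beads, at 5.81, 8.301, 2.903 and 18.8 TPM in WT and from 0.261 to 14.5 TPM (median 6.73) in KO, and reached 63.8, 68.8 and 50.9 TPM in WT and 45.7 and 42.5 TPM in KO with beads. It differed by 2.88 (SE 0.72, limma adjusted p = 0.018) in WT and 2.85 (SE 0.77, limma adjusted p = 0.0327) in KO, calls that some of the alternatives end. The ratio of group mean TPM of Nop56 to Fbl was 4.04 in unstimulated WT and 5.57 with beads, and 5.83 and 6.20 in KO. Part of the Fbl sequence (21.8% of its 31-base words) also lies in other annotated genes, and 22.4% for Nop56, so levels between these genes carry that uncertainty.

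Members of the box H/ACA core, which makes pseudouridine and also binds telomerase RNA, had the largest median response by role in WT, 3.33, with 4 of 4 called, and 2.89 in KO with 3 of 4 called. Nhp2 (chromosome 11, 51619735 to 51623714, + strand), an RNA-binding protein of the core, was at 12.4, 13.2, 20.5 and 23.5 TPM in unstimulated WT and 313, 437 and 348 TPM with beads. In KO it ran from 5.17 to 14.3 TPM (median 9.87) without beads and was 202 and 291 TPM with beads. Its mean was 21.03 times higher with beads in WT and 24.9 times in KO, with log2 differences of 4.35 (SE 0.35, limma adjusted p = 1.99e-05) and 4.55 (SE 0.37, limma adjusted p = 2.26e-05) and no overlap.

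Dkc1 encodes dyskerin, the pseudouridine synthase itself. It was spread widely without beads, at 21.4, 18.1, 37.996 and 79.7 TPM in WT and from 4.74 to 62.8 TPM (median 23.4) in KO, and close together with beads, at 202, 237 and 207 TPM in WT and 170.1 and 178 TPM in KO. The log2 differences were 2.66 (SE 0.67, limma adjusted p = 0.0193) and 3.03 (SE 0.72, limma adjusted p = 0.0167). Nop10, the smallest protein of the core, was at 42.1, 33.2, 33.7 and 39.96 TPM in unstimulated WT and 143, 132 and 134 TPM with beads, while KO libraries ran from 11.99 to 29.7 TPM (median 19.2) without and stood at 108 and 151 TPM with beads. It differed by 1.85 (SE 0.31, limma adjusted p = 0.0019) in WT and by 2.71 (SE 0.33, limma adjusted p = 0.000221) in KO. Gar1, the fourth protein, was at 0 in 1 unstimulated WT library and 1 unstimulated KO library and between 24.5 and 60.3 TPM with beads, with a log2 difference of 3.999 (SE 0.79, limma adjusted p = 0.00499) in WT, and 2.75 (SE 0.84, limma adjusted p = 0.058) in KO. The mean TPM of Nhp2 was 0.443 times that of Dkc1 in unstimulated WT and 1.70 times with beads, and 0.361 and 1.41 times in KO. The ratio was below 1 in each unstimulated WT library (0.295 to 0.730) and above 1 in each bead library (1.19 to 1.85), and ran from 0.128 to 2.62 in unstimulated KO, where Nhp2 exceeded Dkc1 in KO replicate 5.

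**Figure D3:**
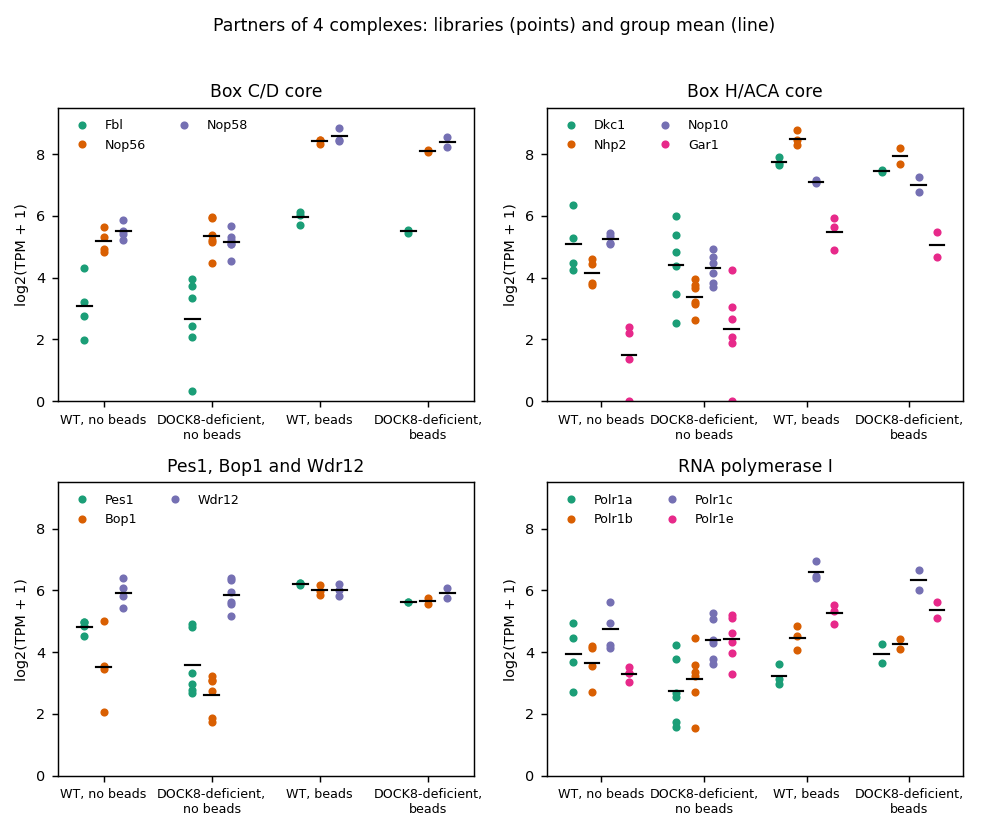
Level of the partners of 4 complexes as log2(TPM + 1), 1 point per library, in 4 groups, with the group mean as a black line. Fbl lies below Nop56 and Nop58 in group mean throughout, Nhp2 passes Dkc1 with beads, Wdr12 stays level while Pes1 and Bop1 reach it, and Polr1c moves away from Polr1a.

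RNA polymerase I subunits responded unevenly. Polr1a and Polr1b encode the pair of largest subunits, which form the catalytic centre, Polr1c encodes a subunit shared with RNA polymerase III, and Polr1e encodes a subunit that aids initiation and elongation. Polr1a was at 11.97, 21.2, 29.6 and 5.56 TPM in unstimulated WT and 6.81, 11.3 and 7.83 TPM with beads, while KO libraries ran from 1.96 to 17.7 TPM (median 5.13) without and stood at 11.6 and 18.1 TPM with beads. The log2 difference was -0.71 (SE 0.63, limma adjusted p = 0.511) in WT, the one negative value among 45, and 1.201 (SE 0.68, limma adjusted p = 0.335) in KO, and the groups overlapped in both. Polr1b was at 5.51, 10.6, 17.6 and 16.8 TPM without and 22.04, 27.5 and 15.7 TPM with beads in WT, while KO libraries ran from 1.901 to 21.1 TPM (median 8.78) without and stood at 16.01 and 20.4 TPM with beads, with overlap and differences of 0.82 (SE 0.56, limma adjusted p = 0.374) and 1.11 (SE 0.59, limma adjusted p = 0.307). Polr1e was tight in unstimulated WT, at 10.4, 7.27, 9.08 and 9.002 TPM, and higher with beads, at 39.8, 45.2 and 29.3 TPM, a difference of 1.96 (SE 0.41, limma adjusted p = 0.00648). In KO it ran from 8.85 to 35.8 TPM (median 21.3) without beads and stood at 33.7 and 48.5 TPM with beads, which overlapped, a difference of 0.95 (SE 0.43, limma adjusted p = 0.218). Polr1c rose in both genotypes, by 1.86 (SE 0.45, limma adjusted p = 0.0146) in WT and 1.93 (SE 0.48, limma adjusted p = 0.0209) in KO. With beads the mean of Polr1c was 11.3 times that of Polr1a in WT and 5.51 times in KO, against 1.66 and 2.97 times without. Pprc1, which encodes a nuclear coactivator related to PGC-1, differed by 0.79 (SE 0.59, limma adjusted p = 0.424) in WT and 1.48 (SE 0.63, limma adjusted p = 0.183) in KO, with overlap in both and no call.

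Of the 14 small subunit factors, 10 were called higher in WT and 11 in KO, with medians of 1.63 and 2.42. Wdr43, a part of the early small subunit processome, was at 5.64, 6.17, 7.52 and 10.7 TPM in unstimulated WT and 40.4, 50.3 and 47.1 TPM with beads, while KO libraries ran from 3.53 to 6.33 TPM (median 4.85) without and stood at 37.8 and 38.3 TPM with beads. It rose by 2.49 (SE 0.29, limma adjusted p = 0.000183) and by 2.73 (SE 0.31, limma adjusted p = 0.000145). Rrp12, an export and maturation factor of the pre-40S particle, was barely detected without beads, at 1.05, 2.65, 1.19 and 1.44 TPM in WT and from 0.187 to 1.79 TPM (median 0.9899) in KO, and reached 14.3, 18.3 and 11.6 TPM in WT and 13.1 and 11.8 TPM in KO with beads. It rose by 2.63 (SE 0.37, limma adjusted p = 0.000704) and 2.82 (SE 0.40, limma adjusted p = 0.00059).

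Ltv1, which accompanies the pre-40S particle into the cytoplasm, had the largest response of the 14 in both genotypes. It was at 1.64, 7.95, 8.54 and 5.33 TPM in unstimulated WT and 62.5, 64.5 and 64.5 TPM with beads, while KO libraries ran from 1.21 to 7.07 TPM (median 2.59) without and stood at 49.1 and 47.4 TPM with beads, a difference of 3.399 (SE 0.50, limma adjusted p = 0.000905) in WT and 3.61 (SE 0.53, limma adjusted p = 0.00078) in KO. The 3 WT bead libraries lay close together, with the smallest SD of log2(TPM + 1) of any member there, 0.026. Nop14, a processome protein, was at 16.6, 6.502, 10.1 and 5.88 TPM without and 21.1, 33.6 and 29.1 TPM with beads in WT, while KO libraries ran from 2.37 to 7.75 TPM (median 4.16) without and stood at 41.3 and 30.99 TPM with beads. Its difference was 1.51 (SE 0.41, limma adjusted p = 0.028) in WT, a call that some alternatives end, and 2.72 (SE 0.44, limma adjusted p = 0.00152) in KO. The remaining factors called in WT were Utp15, Imp3, Imp4, Bysl, Tsr1 and Nob1, with log2 differences from 1.46 to 3.07. Ddx10 was called in KO (1.68, SE 0.40, limma adjusted p = 0.0175) and not in WT (0.89, SE 0.38, limma adjusted p = 0.148).

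Large subunit factors had medians of 2.56 in WT and 3.17 in KO, with 11 of 14 called in each genotype. Nop2 (chromosome 6, 125131909 to 125144753, + strand), an rRNA cytosine methyltransferase, was at 5.89, 11.99, 7.08 and 11.95 TPM in unstimulated WT and 46.9, 76.9 and 65.4 TPM with beads, while KO libraries ran from 0.624 to 3.09 TPM (median 1.96) without and stood at 46.9 and 48.4 TPM with beads. Its mean was 6.84 times higher with beads in WT and 23.9 times in KO, with log2 differences of 2.68 (SE 0.38, limma adjusted p = 0.000704) and 4.09 (SE 0.40, limma adjusted p = 6.39e-05). Ppan, an early factor of the 60S particle, was at 11.5, 11.6, 8.11 and 9.69 TPM without and 79.5, 98.3 and 78.1 TPM with beads in WT, while KO libraries ran from 3.08 to 6.999 TPM (median 3.997) without and stood at 96.1 and 114 TPM with beads, and differed by 2.95 (SE 0.30, limma adjusted p = 9.01e-05) and 4.24 (SE 0.33, limma adjusted p = 2.26e-05). For these genes neither genotype showed overlap between conditions.

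Ebna1bp2, an assembly factor of the 60S particle, was at 13.8, 14.8, 16.4 and 13.6 TPM without and 139, 145 and 114 TPM with beads in WT, while KO libraries ran from 4.83 to 16.2 TPM (median 6.898) without and stood at 91.9 and 123 TPM with beads, a difference of 3.09 (SE 0.36, limma adjusted p = 0.000172) in WT and 3.62 (SE 0.38, limma adjusted p = 9.35e-05) in KO. Nop16, another nucleolar factor of the 60S particle, was at 14.2, 7.55, 9.01 and 22.8 TPM without and 128, 127 and 137 TPM with beads in WT, while KO libraries ran from 1.21 to 12.2 TPM (median 7.13) without and stood at 74.1 and 113 TPM with beads, a difference of 3.32 (SE 0.55, limma adjusted p = 0.00187) in WT and 3.87 (SE 0.59, limma adjusted p = 0.00103) in KO. Neither gene had an unstimulated library as high as its lowest bead library. Rrs1, which brings the 5S particle into the precursor, was at 3.27, 7.02, 3.19 and 0.452 TPM without and 37.4, 63.4 and 37.6 TPM with beads in WT, while KO libraries ran from 0 to 4.12 TPM (median 1.56) without and stood at 30.3 and 35.8 TPM with beads, a difference of 3.59 (SE 0.58, limma adjusted p = 0.00171) in WT and 3.84 (SE 0.62, limma adjusted p = 0.00157) in KO. Grwd1, a histone-binding chaperone also tied to 60S assembly, was at 3.57, 7.38, 0 and 5.87 TPM without and 50.8, 64.996 and 53.4 TPM with beads in WT, while KO libraries ran from 0.923 to 10.5 TPM (median 3.07) without and stood at 44.6 and 47.5 TPM with beads, a difference of 3.83 (SE 0.68, limma adjusted p = 0.0028) in WT and 3.51 (SE 0.73, limma adjusted p = 0.00756) in KO. Both genes had a resting library listed at 0 and none at 0 with beads. Noc2l, a partner in export of the 60S particle, was at 4.47, 6.63, 2.54 and 8.21 TPM without and 21.6, 30.3 and 21.5 TPM with beads in WT, while KO libraries ran from 1.13 to 4.47 TPM (median 2.99) without and stood at 21.3 and 24.4 TPM with beads, a difference of 2.05 (SE 0.40, limma adjusted p = 0.00451) in WT and 2.63 (SE 0.42, limma adjusted p = 0.00149) in KO.

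Pes1, Bop1 and Wdr12 encode the 3 proteins of the PeBoW complex, needed for large subunit maturation, and they did not move alike. Bop1 rose by 2.49 (SE 0.55, limma adjusted p = 0.0098) in WT and 3.04 (SE 0.59, limma adjusted p = 0.00531) in KO. Pes1 was at 22.2, 30.2, 27.6 and 30.6 TPM without and 72.02, 75.4 and 74.3 TPM with beads in WT, while KO libraries ran from 5.45 to 29.3 TPM (median 7.89) without and stood at 48.2 and 48.03 TPM with beads, and differed by 1.397 (SE 0.50, limma adjusted p = 0.0891) in WT, which missed the threshold, and by 2.04 (SE 0.54, limma adjusted p = 0.0296) in KO. The KO call ended in 8 of 29 alternatives, among them each omission of a KO bead library, the fit of KO libraries alone and the scaling to abundant genes. Wdr12 was at 67.3, 83.9, 41.999 and 55.1 TPM in unstimulated WT and 55.4, 64.1 and 72.8 TPM with beads, while KO libraries ran from 35.2 to 83.6 TPM (median 54.7) without and stood at 52.8 and 66.6 TPM with beads, with full overlap. It was examined after its values were seen. Its log2 difference was 0.08 (SE 0.33, limma adjusted p = 0.904) in WT and 0.07 (SE 0.35, limma adjusted p = 0.937) in KO, with 95% intervals from -0.62 to 0.78 and from -0.68 to 0.82, and its sign turns under quantile normalization and when repeat-derived genes are left out. In group means the ratio of Wdr12 to Pes1 was 2.24 in unstimulated WT and 0.867 with beads, and of Wdr12 to Bop1 4.52 and 1.01. The 3 transcripts were therefore listed at close to equal levels with beads in WT. They were at 72.0 to 75.4 TPM for Pes1, 56.3 to 71.4 for Bop1 and 55.4 to 72.8 for Wdr12. Of their 31-base words, 34.8% for Pes1, 12.4% for Wdr12 and 0.66% for Bop1 also lie in other annotated genes. Levels between these genes carry that uncertainty.

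**Figure D4:**
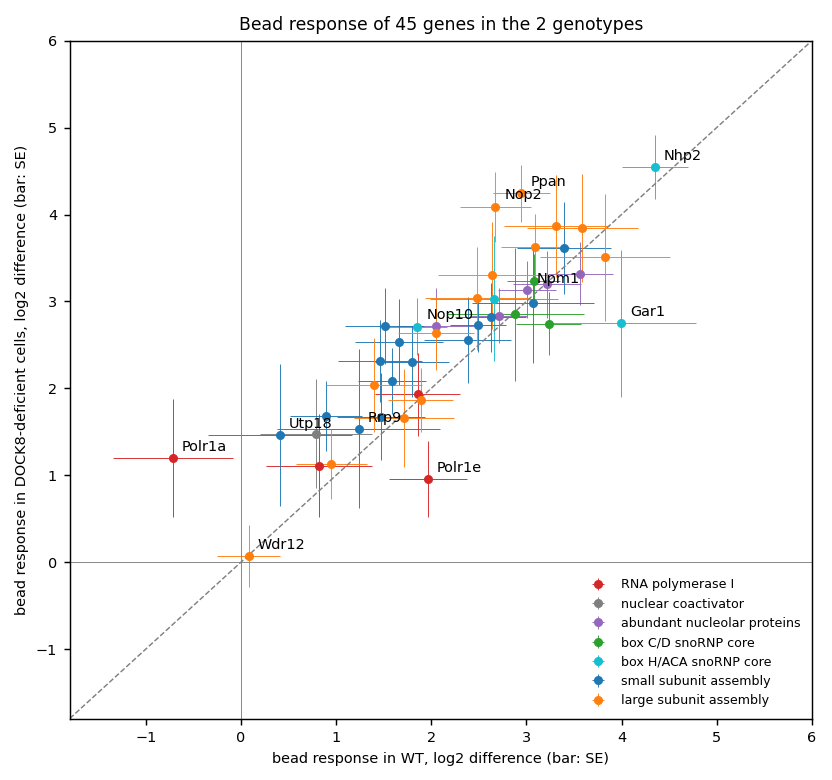
Log2 difference between bead and unstimulated libraries for the 45 genes in WT (horizontal) and KO (vertical), with SE bars, coloured by role, and the line of equal response dashed. Most genes lie near the line at 1.5 to 4.5, while Wdr12 sits near 0 on both axes and Polr1a is below 0 in WT only.

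Across the 45 members the WT and KO bead responses followed each other (Pearson r 0.851, Spearman rho 0.878, n = 45 genes). The responses share no library, though all come from the same assay and genes of one pathway are not independent. The KO response was the larger one for 34 of the 45, against 65.4% of all genes. The difference between responses, KO minus WT, had a median of 0.25 over members, 0.27 over all genes and 0.47 over abundant genes, and 0 of 45 were called, where limma called 1 gene of all higher (0.00333%). At an unadjusted p under 0.05, 2 members had a larger response in KO (Ppan and Nop2) and 0 a smaller one, against 3.49% and 0.664% of all genes. Ppan differed by 1.29 (SE 0.45, limma adjusted p = 0.999) and Nop2 by 1.42 (SE 0.55, limma adjusted p = 0.999). The next were Polr1a at 1.92 (SE 0.93, limma adjusted p = 0.999) and Nop14 at 1.21 (SE 0.60, limma adjusted p = 0.999). None of these differences passed the threshold after adjustment over all genes tested. Their 95% intervals, which are not adjusted for the number of genes, ran from 0.35 to 2.24 for Ppan and from 0.24 to 2.59 for Nop2. Those of Polr1a (-0.06 to 3.89) and Nop14 (-0.07 to 2.49) included 0. These members were picked for having the smallest p. The sign of the members' median turns with the scaling.

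Without beads, the KO mean lay below the WT mean for most of these genes, and no single gene passed the threshold. The log2 difference, KO minus WT, was below 0 for 38 of 45 members, against 58.4% of all genes, with a median of -0.60, against -0.11 for all genes and -0.44 for abundant genes. In limma 0 members were called, against 0.0667% of all genes lower and 0.00667% higher. At an unadjusted p under 0.05, 13 members were lower, against 8.89% of all genes, and 1 was higher (Polr1e), against 2.4%. In the abundant range 11 of 38 members were lower at that p, 28.9%, where 23.6% of all such genes were, so that the share of members was near the background. Repeat-derived genes took a larger share of the unstimulated KO libraries than of the WT ones, as given above, and Treg cell markers summed to 375 to 565 TPM in KO and 541 to 900 TPM in WT. Their part in the difference was not tested. Without the 3 KO libraries above 35% in repeat-derived genes the members' median was -0.38, and with libraries scaled to 804 abundant genes it was -0.24, with 32 of 45 below 0.

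Nop2 had the smallest p, with KO libraries running from 0.624 to 3.09 TPM (median 1.96) and WT libraries at 5.89, 11.99, 7.08 and 11.95 TPM, and no overlap. The difference was -1.79 (SE 0.32, limma adjusted p = 0.0596). It was called without KO unstimulated replicate 3 and with a filter of 5 TPM, and its adjusted p was 0.164 when scaled to abundant genes. Ppan, at -0.996 (SE 0.26, limma adjusted p = 0.18), and Nop10, at -0.95 (SE 0.26, limma adjusted p = 0.196), were the other members without overlap, lower in all 6 KO libraries than in the 4 WT libraries. In all, 3 of 45 members did not overlap, against 1.27% of all genes. Polr1e went the other way, with WT at 10.4, 7.27, 9.08 and 9.002 TPM and KO running from 8.85 to 35.8 TPM (median 21.3), a difference of 1.12 (SE 0.34, limma adjusted p = 0.24); 1 KO library lay within the WT range. Npm1 was at -0.53 (SE 0.26, limma adjusted p = 0.459) and Ncl at -0.51 (SE 0.25, limma adjusted p = 0.464). Nop56 was at 0.18 (SE 0.29, limma adjusted p = 0.886). By role the median was -0.76 for large subunit factors, -0.60 for small subunit factors, -0.72 for the H/ACA core, -0.51 for abundant nucleolar proteins, -0.42 for polymerase I and -0.35 for the C/D core.

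**Figure D5:**
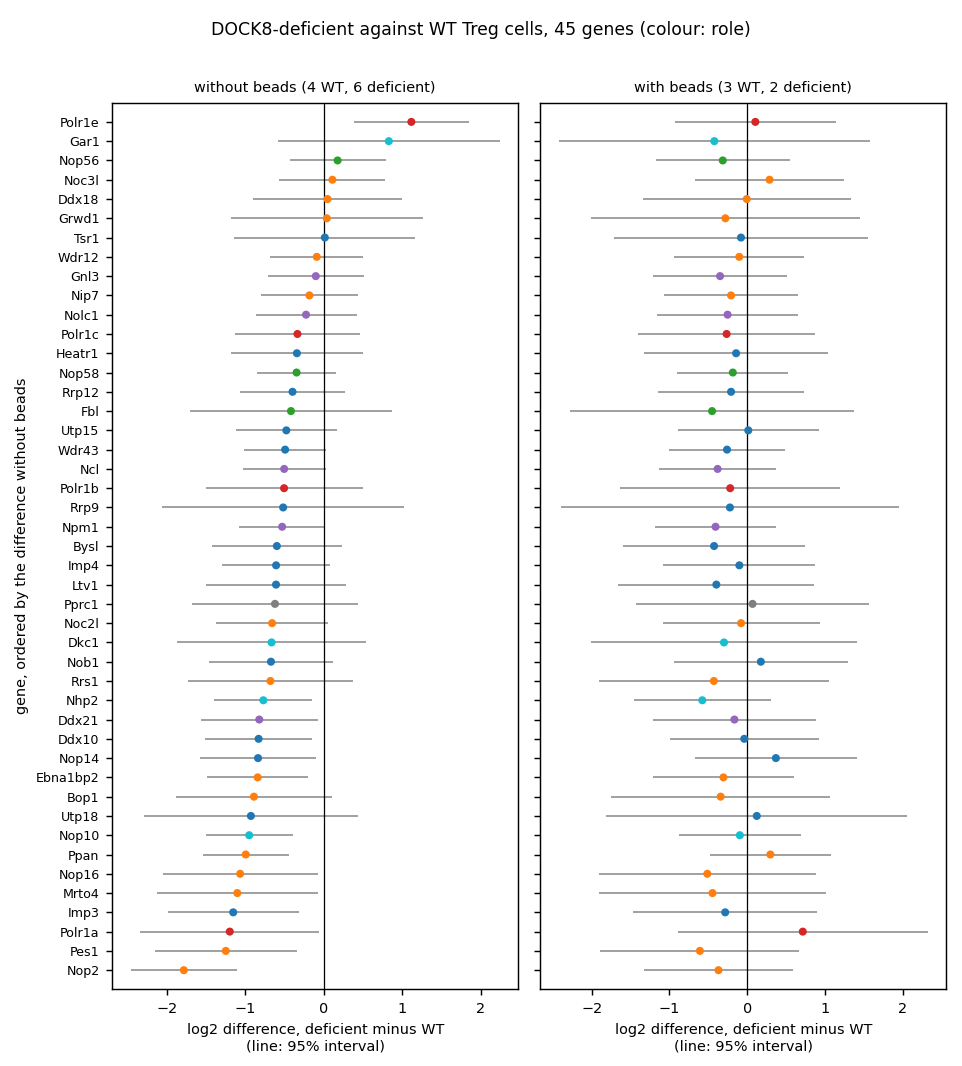
Log2 difference, KO (DOCK8-deficient) minus WT, with 95% intervals for each of the 45 genes without beads (left) and with beads (right), in the order of the left panel and coloured by role. Most points lie left of 0 in both panels, and none of the 45 genes passed the threshold in either.

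With beads, KO means were again below WT means for most of the genes, and no gene passed the threshold. The median log2 difference over members was -0.22, over all genes 0.13 and over abundant genes -0.00018. It was -0.12 without WT bead replicate 2 and -0.50 under median-ratio scaling. In this comparison 36 of 45 members were below 0, against 39.9% of all genes. In limma 0 of 45 were called, and 0 had an unadjusted p under 0.05, against 0.00333% of all genes called lower, 0.72% lower and 2.17% higher at that unadjusted p. Both KO libraries lay below all 3 WT libraries for 15 members, against 8.02% of all genes, and above them for 1 (Polr1a), against 17.4%. The 15 were Npm1, Ncl, Gnl3, Fbl, Nop56, Dkc1, Nhp2, Wdr43, Imp3, Ltv1, Nop16, Bop1, Pes1, Rrs1 and Grwd1. Nhp2, at 202 and 291 TPM in KO and 313, 437 and 348 TPM in WT, differed by -0.58 (SE 0.41, limma adjusted p = 1). Npm1, at 1494 and 1978 TPM in KO and 2239.9, 2579.8 and 2051 TPM in WT, differed by -0.41 (SE 0.36, limma adjusted p = 1), and Ncl by -0.38 (SE 0.35, limma adjusted p = 1). Pes1, at 48.2 and 48.03 TPM in KO and 72.02, 75.4 and 74.3 TPM in WT, differed by -0.61 (SE 0.60, limma adjusted p = 1). Their 95% intervals include 0 and reach from -1.46 to 0.31 for Nhp2 and from -1.18 to 0.37 for Npm1. These errors pool the spread of all 4 groups, and the median SD of a member on the log2 scale was 0.53 and 0.61 in unstimulated WT and KO and 0.22 and 0.17 with beads. For Pes1 the SD was 0.033 in WT and 0.0041 in KO with beads. In a limma fit of the 5 bead libraries alone 0 of 45 were called, with an adjusted p of 0.369 for Pes1.

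Median spread between libraries was smaller with beads, where each SD came from 3 (WT) or 2 (KO) libraries, against 4 and 6 without beads. The members' median TPM averaged 11.3 and 6.66 in unstimulated WT and KO libraries and 56.4 and 46.8 with beads. The part of group size and of level in the spread was not tested. The median SD of log2(TPM + 1) over the members reached 0.53 (WT) and 0.61 (KO) without beads, and 0.22 (WT) and 0.17 (KO) with beads. Abundant genes as a whole had 0.55, 0.62, 0.28 and 0.24 in that order, so the members were near the background in each group. Zeros occurred only without beads, 2 values in WT and 4 in KO. Nothing was at 0 with beads.

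Other genes of ribosome production, 168 chosen by name of which 165 were tested, had medians above 0 in both bead responses. Across all genes 4.6% and 5.95% were called higher in WT and KO, and 6.63% and 2.15% lower. Of the 165, 69 were called higher and 3 lower in WT, with a median log2 difference of 1.27. In KO 77 were called higher and 0 lower, with a median of 1.49. Of the 15 upstream regulators and checkpoint genes among them, 3 were called higher and 1 lower in WT, with a median of -0.15, and 4 higher in KO, with a median of 0.22. Myc was between 3.05 and 9.36 TPM in unstimulated WT and between 140 and 179 TPM with beads (4.59, SE 0.43, limma adjusted p = 6.16e-05), and between 1.57 and 7.85 and between 128 and 158 TPM in KO (4.88, SE 0.46, limma adjusted p = 4.23e-05). The smallest p after Myc in WT belonged to Rrp15 and Brix1, both large subunit factors, Ruvbl1, an ATPase of snoRNP assembly, Snhg6, a snoRNA host gene, and Mybbp1a, which binds Myb and acts on polymerase I. Their WT log2 differences were 3.36, 2.67, 2.76, 2.32 and 3.14. In KO the called genes with the smallest p were Rrp15, Ruvbl1, Brix1, Myc, Snhg1 and Rpp30, at 4.08, 3.35, 3.34, 4.88, 3.54 and 3.56. The 3 that fell in WT, named because they were so few, were Ttf1, the termination factor of polymerase I (-1.53), Bud23, a small subunit methyltransferase (-0.90), and Mxd4, an antagonist of Myc (-2.10). Without beads KO differed from WT for 1 gene, Rpp30, an RNase P and MRP subunit, which was lower (-1.998, SE 0.33, limma adjusted p = 0.0436).

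Small nucleolar RNA genes lie inside some members, as they often do inside genes of this pathway. The annotation places 23 of them in 8 members: 5 in Nop56, 4 in Nop58, 3 each in Ncl, Gnl3 and Wdr43, 2 each in Tsr1 and Ppan, and 1 in Dkc1. All 8 members rose in both genotypes, where 44 of all 45 members had a log2 difference above 0 in WT and 45 in KO. For 13 of the 45 genes over 10% of 31-base words also occur in other annotated genes. Those with most were Ddx18 (65.5%, mainly in Gm16433), Pes1 (34.8%, mainly in Gm5910), Tsr1 (33.2%, mainly in Srr) and Npm1 (29.4%), so that their levels depend on how reads were divided and are uncertain.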

How the data were processed

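RNA from 15 sorted Treg cell samples was read by Smart-Seq2, per the labels' protocols. The authors deposited 1 table of TPM per library. STAR, Salmon, DESeq2 and the mm10 genome appear in the submitters' processing notes, with neither versions nor what each tool was used for. TPM keep no read depth, so no count model was fitted.

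The 45 members were matched by Ensembl identifier to GENCODE vM21. After removal of genes that reached 1 TPM in fewer than 2 libraries, 29989 were fitted as log2(TPM + 1) in limma 3.58.1 (R 4.3.3), with the variance trend and 1 mean for each of the 4 groups (11 residual degrees of freedom). The 5 contrasts were adjusted by the Benjamini-Hochberg method over all genes; every adjusted p is from limma. Fold differences between TPM are ratios of group means, and log2 differences understate changes of low genes. The fit was run on simulated data in which each gene had 1 spread shared by the 4 groups. The groups here differed in spread, which that simulation does not cover. Values in every library were given for members called with the smallest p (up to 20), the 4 with the smallest p in each comparison, and Npm1, Ncl, Fbl, Nop56, Dkc1, Polr1a and Polr1b; of other pathway genes, up to 6 called genes with the smallest p in each comparison, and Myc. Wdr12, Bop1, Gar1, Polr1c, Pprc1, Ddx10 and the intronic RNAs were described after their values were seen. The members, lists and alternatives were chosen with earlier results of these data known. Of 168 pathway genes 3 were not analysed here.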

Additional observations from a re-analysis of the deposited data

Results flagged for a closer look

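In unstimulated WT, Npm1 stood at 7.73 on the log2(TPM + 1) scale in replicate 2 (211 TPM), while the other 3 libraries lay between 307 and 318 TPM. Among 58 groups of values checked for a lone library this was the 1 found, and chance gives about 1 in 20 groups. The same library had 2 members at 0 (Gar1 and Grwd1) and 31.4% of its TPM in repeat-derived genes, the highest share among the 4 WT libraries, and the lowest summed level of the 45 genes, 824 TPM. Without it the members' median response to beads in WT was 2.07.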

How the results depend on the processing

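Each result was recomputed with pseudocounts of 0.1 and 5, other filters, 5 other scalings, other fits, a replicate block, the numbered libraries alone, and the omission of single libraries. The members' median kept its direction in all of these for both bead responses and for KO against WT with and without beads; for the difference between responses it turned to -0.16 with median-ratio scaling over 15083 genes and -0.11 when scaled to abundant genes. KO against WT without beads had a median of -0.35 with pseudocount 5 and -0.24 when scaled to abundant genes, and 1 member (Nop2) was called with a filter of 5 TPM; with a library left out the count ran from 0 to 1. With beads, KO against WT had a median of -0.50 under median-ratio scaling. The WT response had medians of 2.62 and 1.70 with pseudocounts 0.1 and 5, 2.93 under median-ratio scaling, 2.15 without the 2 unnumbered libraries and 2.07 to 2.61 with a library left out. The KO response had 2.95 and 2.04 with those pseudocounts, 2.26 when scaled to abundant genes and 2.39 without repeat-derived genes, and its called members ran from 17 to 35 with a library left out, where a lone bead library is assumed to vary like the other groups. The cause of these shifts was not tested. Calls held in every alternative for 26 of 35 members in WT and 17 of 34 in KO; in WT they ended in 5 of 29 alternatives for Fbl, 6 for Dkc1 and 8 for Nop14, and in KO in 9 for Fbl, 8 for Pes1, 4 each for Dkc1 and Grwd1, 2 for Noc2l and 1 for Rrs1.

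The share of all calls in the bead response that were higher was 40.9% in WT and 73.4% in KO. It was 80.4% and 80.5% under median-ratio scaling, 57.3% and 60.8% under quantile normalization, 44.4% and 39.8% when scaled to abundant genes and 26.8% and 41.2% without repeat-derived genes, while members called lower remained at 0. The median of all genes for KO against WT without beads moved from -0.11 to 0.13 when scaled to abundant genes.

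Whether replicate numbers pair the samples is not stated. Deviations of same-numbered libraries from their group means had correlations between -0.02 and 0.03. Libraries did not correlate best with their own number in all pairs. Correlations over all genes are open to noise in low genes, so they do not decide whether same-numbered libraries share a mouse. With the number as a replicate block over 13 numbered libraries, 30 members were called for WT beads (median 2.15), 24 for KO beads (2.72) and 0 for the others, with medians of -0.63 (KO against WT at rest), -0.14 (KO against WT with beads) and 0.53 for the difference between responses. The number of libraries, and a depth that is unknown from TPM, limit what could be detected.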
